A study of Mus musculus with 16 samples.

Results

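The genes that carry a cell through G1 into S phase were examined in cultured mouse myoblasts: the D-type cyclins Ccnd1, Ccnd2 and Ccnd3, their kinases Cdk4 and Cdk6, the E-type cyclins Ccne1 and Ccne2, their kinase Cdk2, the phosphatase Cdc25a and the transcription factor E2f1. The 10 genes were picked by name, with earlier results of these data known. The arrays carried 14 probes under these names, of 55681 distinct probes under 34836 gene names, and all 10 genes were among the 20317 genes tested. In dispersed myoblasts Ccnd1 and Ccnd3 rose between 48 and 72 hr, by 1.29-fold and 1.42-fold. In myofiber-associated myoblasts Ccnd3 alone among the 10 passed the test, with a 3.28-fold rise, and its rise differed between the 2 cultures.

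Myoblasts derived from muscle satellite cells of male C57Bl/6J mice, 11 to 13 weeks old per the labels, were collected in 4 groups of 4 arrays each, with no genetic alteration or drug named in the labels. Dispersed myoblasts grew on gelatin-coated dishes, away from any fiber, each preparation from 1 mouse, and were collected at 48 hr or at 72 hr. Myofiber-associated myoblasts were grown on explanted fibers, stripped off with trypsin at 48 hr or at 72 hr, and came from 2 mice per preparation, and 1 array at 48 hr (replicate 10) carried a pool of 2 preparations. Both cultures thus consisted of cells that had left the animal, and the 72-hr cells were not the 48-hr cells followed over time.

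All 8 myofiber-associated arrays were on 1 slide and all 8 dispersed arrays on another, scanned in separate sessions, so the effects of culture and of slide cannot be told apart. The 72-hr arrays occupied slide columns 1 and 2 and those of 48 hr occupied 3 and 4, so time and slide column cannot be told apart either. Of all probes, 54 to 63.5% were well above background on an array, and the median SD of a gene within a group was 0.09 and 0.10 log2 units in the dispersed groups against 0.22 and 0.18 in the myofiber-associated groups at 48 and 72 hr. The 9 myoblast markers were well above background in all 4 groups, and 3 of them rose and none fell over time in each culture. Their summed signals were 215000 to 231000 (48 hr) and 241000 to 317000 (72 hr) on dispersed arrays, and 224000 to 293000 and 338000 to 375000 on myofiber-associated arrays, so the sums were higher at 72 hr in both, as were Ccnd3 and Ccnd1 on average. In each culture 7 of the 9 changes over time were above 0 and 2 below. Des, 1 of the 9, had mean log2 signals of 11.95 and 12.67 on dispersed and 15.99 and 15.04 on myofiber-associated arrays at 48 and 72 hr. Summed over 13 adult fiber markers, the dispersed arrays had signals of 26600 to 68100 (48 hr) and 16700 to 19700 (72 hr), against 2080000 to 2670000 and 460000 to 1990000 on the myofiber-associated arrays. For 12 endothelial markers these sums were 84600 to 112000 and 33200 to 45700 on dispersed arrays, and 13200 to 23900 and 8330 to 9960 on myofiber-associated arrays. In such bulk RNA, fewer cells of a type and less RNA per cell cannot be told apart, and the part of these cells in the values below was not tested. Over time in dispersed myoblasts (in parentheses, myofiber-associated myoblasts), 13.7% of all genes tested were called (5.48%). Among the other marker lists, called genes numbered 3 higher and 1 lower of 6 for differentiating myocytes (2 and 0). The summed signals of these 6 were 5930 to 7830 (48 hr) and 7400 to 11700 (72 hr) on dispersed arrays. On myofiber-associated arrays they were 165000 to 277000 and 43800 to 165000, and there 3 of the 6 changes were above 0 and 3 below. Ckm made the largest part of these sums (mean log2 signal 17.36 and 15.30), and fell on average with Myog and Actc1. Higher at 72 hr were Tnnt2, Tmem8c (6.90 to 9.21) and Myh3 (2.95, on no array well above background, to 9.68). The sums thus do not stand for all 6 markers. Called genes numbered 1 and 4 of 9 for leukocytes (1 and 0) and 0 and 1 of 8 for fibroblasts (0 and 3). They numbered 0 and 3 of 8 for pericytes and smooth muscle (1 and 1), 0 and 3 of 5 for Schwann cells (0 and 0), and 0 and 0 of 6 for dividing cells (0 and 0).

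As background, D-type cyclins are made in response to growth factors, bind CDK4 or CDK6 and begin the phosphorylation of the retinoblastoma protein, which then releases E2F factors. E2F factors drive the genes of E-type cyclins and of DNA synthesis, and cyclin E with CDK2 completes the step into S phase. In muscle, cyclin D1 opposes the activity of MyoD in dividing myoblasts, whereas cyclin D3 is known to accumulate as myoblasts leave the cell cycle and differentiate.

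Promoter sequence was available in RefSeq (build GRCm38.p6) for 7 of the 10 genes, in 8 windows, and the 250 bases before the annotated start were searched on both strands. Both windows of Ccnd3 are shown because Ccnd3 had the largest time change of the 10 genes, with the GC box GGGCGG or its complement in capitals. The first lies at chr17:47504801-47505050 and the second at chr17:47593217-47593466, both on the plus strand.
Ccnd3, first window: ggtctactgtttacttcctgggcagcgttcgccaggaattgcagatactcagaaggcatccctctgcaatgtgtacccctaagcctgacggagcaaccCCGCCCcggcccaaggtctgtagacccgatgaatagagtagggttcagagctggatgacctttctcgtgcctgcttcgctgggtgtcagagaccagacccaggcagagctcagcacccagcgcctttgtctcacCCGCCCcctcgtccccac
Ccnd3, second window: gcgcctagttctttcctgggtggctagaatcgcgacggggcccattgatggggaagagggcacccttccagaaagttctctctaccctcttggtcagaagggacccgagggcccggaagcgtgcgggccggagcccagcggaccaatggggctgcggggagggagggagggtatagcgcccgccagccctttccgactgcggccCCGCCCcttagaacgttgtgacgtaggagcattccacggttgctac
This hexamer occurred 2 times in the first and 1 time in the second window, and in 32.7% of all 32851 windows of this length. Neither window held an E-box, the letters CANNTG, which were present in 66.2% of all windows.

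The Cdk4 promoter is shown for its E-boxes in capitals, and lies at chr10:127063285-127063534 on the plus strand.
Cdk4: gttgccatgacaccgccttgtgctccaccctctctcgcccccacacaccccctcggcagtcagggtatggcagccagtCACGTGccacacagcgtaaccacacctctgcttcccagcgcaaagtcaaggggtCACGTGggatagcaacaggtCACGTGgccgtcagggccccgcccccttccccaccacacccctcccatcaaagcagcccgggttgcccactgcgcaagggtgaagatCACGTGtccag
Its 4 E-boxes all had the letters CACGTG, which occurred in 6.02% of all windows and, among the 8 windows of these genes, also 1 time in that of Cdk6. Cdc25a is shown with the E2F motif in capitals, from chr9:109875329-109875578 on the plus strand.
Cdc25a: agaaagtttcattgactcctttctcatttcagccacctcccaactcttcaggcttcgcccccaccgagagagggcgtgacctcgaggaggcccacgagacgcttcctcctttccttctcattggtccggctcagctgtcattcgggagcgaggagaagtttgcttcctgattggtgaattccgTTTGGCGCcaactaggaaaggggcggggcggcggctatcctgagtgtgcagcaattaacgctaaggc
The E2F motif was searched as 4 words, TTTCCCGC, TTTGGCGC, TTTCGCGC and TTTGCCGC, and 1.86% of all windows held at least 1 of them. The windows of Cdc25a and Cdk2 held 1 each, and those of Ccnd3, Cdk4, Cdk6, Ccne1 and E2f1 none. For E2f1 only the window before 1 annotated start was searched. Sequence at other starts of E2f1 was not covered, so its promoter cannot be said to lack the motif.

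The array probes were 60 bases long, and 2 of them are shown as examples of the oligonucleotides on the arrays. That of Ccnd2 was placed by the files at chr6:127098696-127098755 on the minus strand of mm9, and 1 of the 3 probes of Cdk4 at chr10:126503162-126503221 on the plus strand.
Ccnd2 probe: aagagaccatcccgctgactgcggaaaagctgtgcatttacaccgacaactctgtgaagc
Cdk4 probe: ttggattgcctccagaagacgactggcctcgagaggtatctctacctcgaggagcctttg
Values below are log2 normalized signals of the brightest probe of a gene, and probes of different genes cannot be ranked against each other by their signal. For Cdk4 the brightest probe was not the one shown here.

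Ccnd3, cyclin D3, was read by a probe at chr17:47736579-47736638 on the plus strand of mm9. Its log2 signals in dispersed myoblasts were 14.65, 14.60, 14.63 and 14.55 at 48 hr and 15.03, 15.02, 15.13 and 15.28 at 72 hr. In myofiber-associated myoblasts they were 13.85, 13.90, 13.44 and 13.92 at 48 hr and 15.76, 15.29, 15.77 and 15.14 at 72 hr. The times did not overlap in either culture. The group means, from high to low, were myofiber-associated at 72 hr (15.49 ± 0.33, SD, n = 4), dispersed at 72 hr (15.11 ± 0.12), dispersed at 48 hr (14.61 ± 0.05) and myofiber-associated at 48 hr (13.78 ± 0.23), and only the first 2 of these neighbors overlapped.

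The rise of Ccnd3 on the log2 scale was 0.51 (SE 0.06) in dispersed myoblasts (limma adjusted p = 0.00106) and 1.71 (SE 0.18) in myofiber-associated myoblasts (limma adjusted p = 0.00141). The 95% confidence intervals of the folds were 1.28 to 1.58 and 2.45 to 4.37. The difference between the cultures, the dispersed minus the myofiber-associated change, was -1.20 (SE 0.20), with a limma adjusted p of 0.00283. The second probe of Ccnd3, at chr17:47736267-47736326, gave changes of 0.45, 1.68 and -1.22 for the same comparisons, all with a limma adjusted p under the threshold of 0.01 in the fit of 28197 probes. When all 16 arrays shared 1 estimate of the spread, the dispersed rise of Ccnd3 no longer passed (limma adjusted p = 0.0344), while the myofiber-associated rise did (limma adjusted p = 1.5e-06). This estimate pools the smaller spread of the dispersed arrays with the larger spread of the myofiber-associated arrays. With it 5782 of 20317 genes passed for myofiber-associated time, against 1114 without it, which bears on each gene said below to pass with the shared spread. Between the 4 myofiber-associated arrays at 72 hr, the 2 with the higher Ccnd3 signals (replicates 1 and 3) had summed adult fiber marker signals of 661000 and 460000, and the other 2 had 1640000 and 1990000. At 48 hr replicates 7 and 9 both had a sum of 2670000, with Ccnd3 at 13.85 and 13.44. Replicates 8 and 10 had sums of 2360000 and 2080000, with Ccnd3 at 13.90 and 13.92. A link between the 2 signals was not tested.

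**Figure D1:**
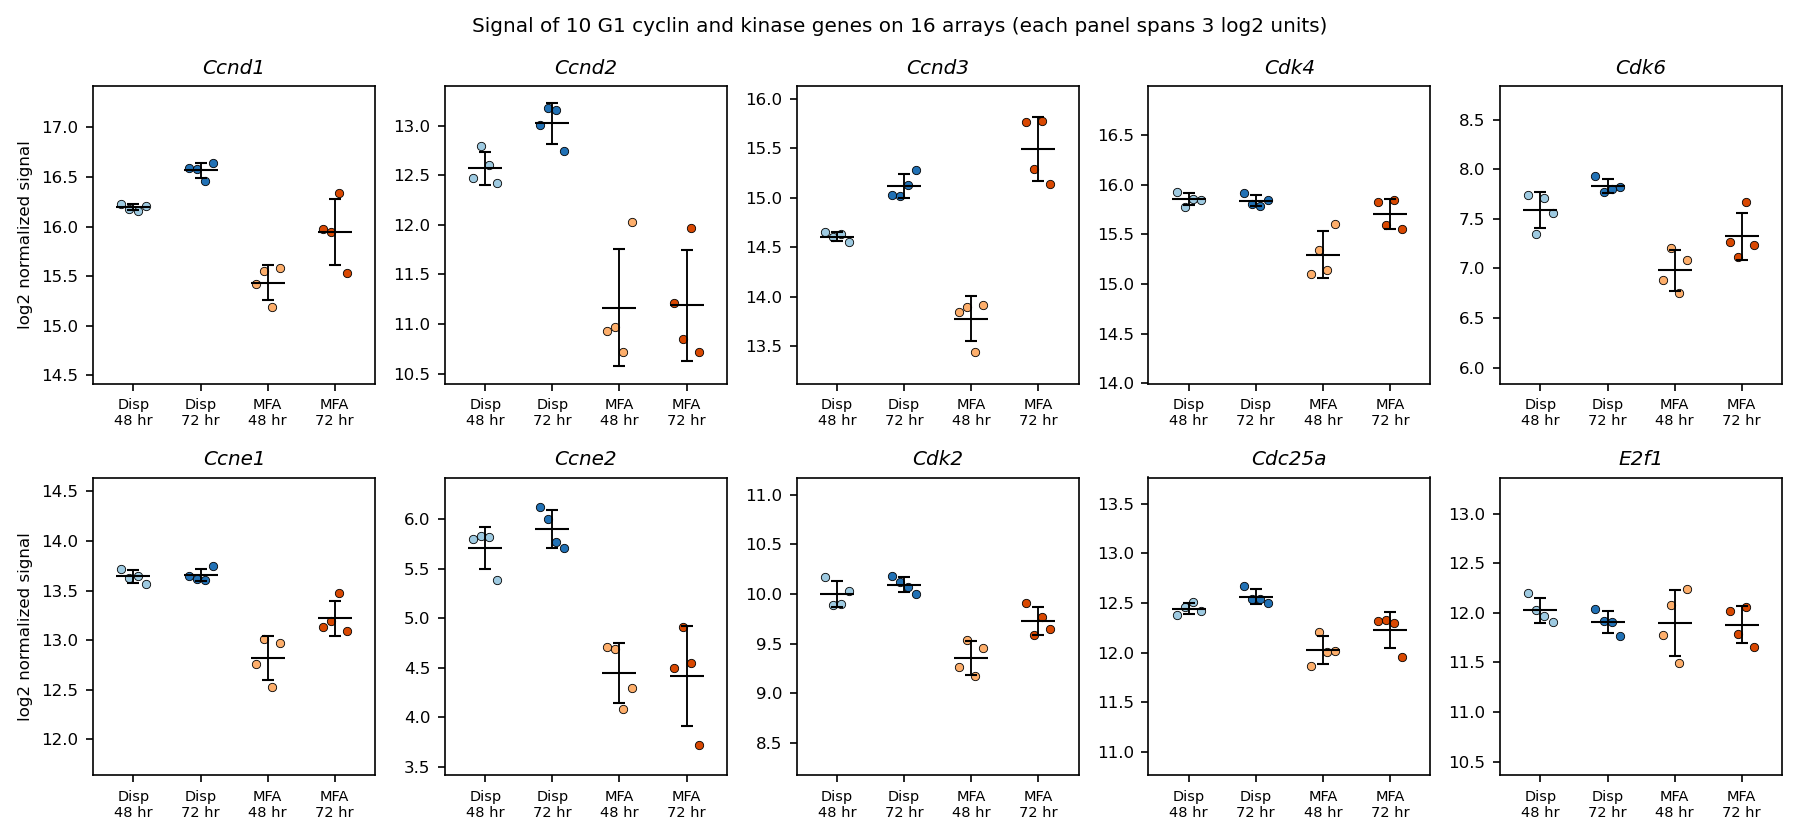
Log2 normalized signal (y axis) of the 10 genes on the 16 arrays, grouped by culture (Disp, dispersed; MFA, myofiber-associated) and time (x axis), with points for arrays and bars for the mean ± SD of 4 arrays; every panel spans the same number of log2 units. Ccnd3 moved from a mean of 13.78 to 15.49 in myofiber-associated myoblasts, whereas E2f1 had means between 11.88 and 12.03 in all 4 groups.

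Ccnd1, cyclin D1, was read at chr7:152116202-152116261 on the minus strand of mm9. Its dispersed log2 signals were 16.23, 16.18, 16.16 and 16.21 at 48 hr and 16.59, 16.58, 16.46 and 16.64 at 72 hr, with no overlap. Its myofiber-associated log2 signals were 15.42, 15.55, 15.19 and 15.58 at 48 hr and 15.98, 15.94, 16.34 and 15.53 at 72 hr, where the lowest 72-hr array, replicate 4, lay among the 48-hr arrays. Ccnd1 rose in dispersed myoblasts by 0.37 log2 units, with an SE of 0.05 (limma adjusted p = 0.00127), a call that ended when all 16 arrays shared 1 estimate of the spread (limma adjusted p = 0.0932). In myofiber-associated myoblasts its difference was 0.51 (SE 0.17, limma adjusted p = 0.0639), with a 95% confidence interval of 0.11 to 0.91, and with the shared spread it passed (limma adjusted p = 0.00651). The changes in the 2 cultures differed by -0.14 (limma adjusted p = 0.612), with a 95% confidence interval of -0.54 to 0.26.

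Ccnd2, cyclin D2, had dispersed log2 signals of 12.47, 12.79, 12.60 and 12.42 at 48 hr and 13.01, 13.18, 13.16 and 12.74 at 72 hr. Its myofiber-associated log2 signals were 10.93, 10.97, 10.72 and 12.03 at 48 hr and 11.21, 10.85, 11.97 and 10.72 at 72 hr. The times overlapped in both cultures, and all dispersed arrays were above all myofiber-associated arrays. The dispersed times differed by 0.45 (SE 0.12), which missed the threshold (limma adjusted p = 0.0241) and passed, at 0.55, only without dispersed replicate 8 at 72 hr (limma adjusted p = 0.0072). In myofiber-associated myoblasts the time difference was 0.03, with a 95% confidence interval of -0.78 to 0.83 (limma adjusted p = 0.96). The high array at 48 hr was replicate 10, the pool of 2 preparations, and the interval of the difference between cultures was -0.42 to 1.28.

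Cdk4, the kinase partner of D-type cyclins, had dispersed log2 signals of 15.93, 15.78, 15.86 and 15.85 at 48 hr and 15.92, 15.81, 15.79 and 15.85 at 72 hr, which lay within the same range. Its myofiber-associated log2 signals were 15.10, 15.34, 15.14 and 15.61 at 48 hr and 15.83, 15.60, 15.85 and 15.56 at 72 hr, and only replicate 10 at 48 hr reached the 72-hr arrays. The time differences were -0.02 (95% confidence interval -0.13 to 0.09) in dispersed and 0.42 (0.10 to 0.73) in myofiber-associated myoblasts, with limma adjusted p of 0.827 and 0.0593, and the 3 probes of Cdk4 gave 0.42, 0.48 and 0.40 in myofiber-associated myoblasts. The myofiber-associated difference passed with the spread shared over 16 arrays (limma adjusted p = 0.00531), and the difference between cultures, -0.43 (limma adjusted p = 0.0569), passed at -0.54 without replicate 10 (limma adjusted p = 0.00589).

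**Figure D2:**
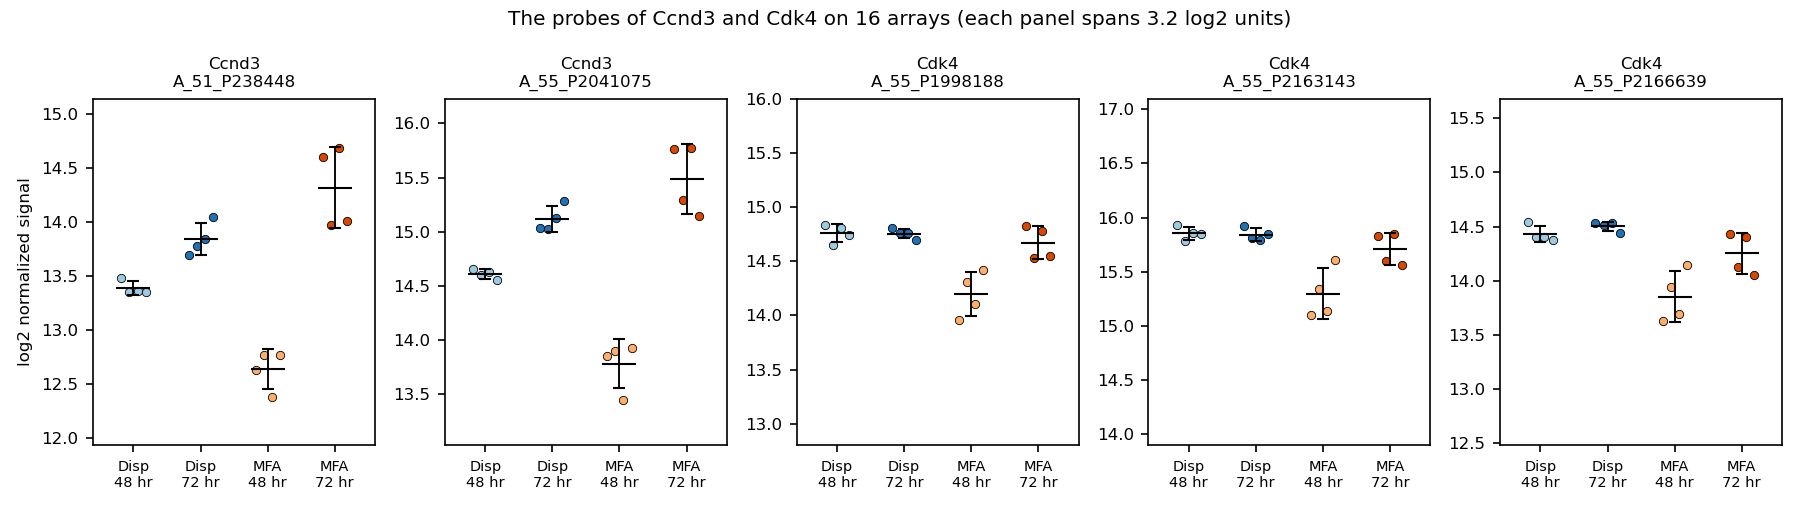
Log2 normalized signal (y axis) of the 2 probes of Ccnd3 and the 3 probes of Cdk4, each panel titled with gene and probe name, in the 4 groups of culture (Disp, dispersed; MFA, myofiber-associated) and time (x axis); points are arrays and bars the mean ± SD of 4 arrays. Both Ccnd3 probes were higher at 72 hr than at 48 hr on every array of either culture, and the 3 Cdk4 probes differed by 0.40 to 0.48 between the means of the myofiber-associated times.

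Cdk6, the other kinase that pairs with D-type cyclins, had dispersed log2 signals of 7.74, 7.35, 7.71 and 7.56 at 48 hr and 7.93, 7.77, 7.80 and 7.82 at 72 hr. Its myofiber-associated log2 signals were 6.88, 7.21, 6.75 and 7.09 at 48 hr and 7.27, 7.12, 7.67 and 7.24 at 72 hr. The dispersed times did not overlap, with a difference of 0.24 (SE 0.09) that did not pass (limma adjusted p = 0.0858). The myofiber-associated difference was 0.34 (SE 0.15, limma adjusted p = 0.123). The deposited ratios gave 0.25 in dispersed myoblasts and passed (limma adjusted p = 0.00922). These ratios exist for 72-hr arrays only, so their test left out the spread of the 48-hr arrays and is less strict.

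Ccne1, cyclin E1, had dispersed log2 signals of 13.72, 13.63, 13.65 and 13.57 at 48 hr and 13.65, 13.62, 13.61 and 13.75 at 72 hr. Its myofiber-associated log2 signals were 12.76, 13.01, 12.53 and 12.97 at 48 hr and 13.13, 13.19, 13.48 and 13.09 at 72 hr. The dispersed times overlapped, and the myofiber-associated times did not. The time differences were 0.02 (95% confidence interval -0.10 to 0.13) and 0.40 (0.09 to 0.72), with limma adjusted p of 0.856 and 0.0664, and the second passed with the spread shared over 16 arrays (limma adjusted p = 0.00696). The second probe of Ccne1 gave 0.12 and 0.35.

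Cdk2, the kinase partner of cyclin E, had dispersed log2 signals of 10.17, 9.89, 9.90 and 10.03 at 48 hr and 10.18, 10.12, 10.07 and 10.00 at 72 hr. Its myofiber-associated log2 signals were 9.26, 9.54, 9.17 and 9.46 at 48 hr and 9.91, 9.59, 9.77 and 9.65 at 72 hr, again without overlap. The time differences were 0.09 and 0.37 (SE 0.07 and 0.12), with limma adjusted p of 0.39 and 0.0529, and the second passed with the shared spread (limma adjusted p = 0.00693). Neither Ccne1 nor Cdk2 changed differently in the 2 cultures by the test (limma adjusted p = 0.0844 and 0.165), with differences of -0.39 (95% confidence interval -0.70 to -0.07) and -0.28 (-0.57 to 0.02).

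Ccne2, cyclin E2, was well above background on all arrays but 1, myofiber-associated replicate 4 at 72 hr. Its dispersed log2 signals were 5.80, 5.83, 5.82 and 5.39 at 48 hr and 6.12, 6.00, 5.77 and 5.71 at 72 hr. In myofiber-associated myoblasts they were 4.71, 4.69, 4.09 and 4.30 at 48 hr and 4.50, 4.91, 4.55 and 3.72 at 72 hr. The times overlapped in both cultures, with differences of 0.19 and -0.03 (limma adjusted p = 0.325 and 0.936) and wide 95% confidence intervals of -0.11 to 0.49 and -0.62 to 0.56. Ccne2 reached the required median log2 signal of 5 only through the dispersed arrays, since all 8 myofiber-associated arrays lay below it.

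Cdc25a, which removes inhibitory phosphates from CDK2, had log2 signals of 12.38 to 12.51 and 12.50 to 12.67 in dispersed myoblasts and 11.86 to 12.21 and 11.96 to 12.33 in myofiber-associated myoblasts, at 48 and 72 hr. Its time differences were 0.12 and 0.20 (limma adjusted p = 0.133 and 0.235). E2f1, the factor released from the retinoblastoma protein, had log2 signals of 11.91 to 12.20 and 11.77 to 12.04 in dispersed myoblasts and 11.49 to 12.24 and 11.66 to 12.06 in myofiber-associated myoblasts. The 4 E2f1 ranges overlapped, and the time differences were -0.12 and -0.02, with 95% confidence intervals of -0.30 to 0.06 and -0.42 to 0.39.

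Counted over the 10 genes, 2 rose and none fell in dispersed myoblasts, where 13.7% of all genes tested passed (7.37% higher and 6.35% lower). In myofiber-associated myoblasts 1 rose and none fell, against 5.48% of all genes (3.74% higher and 1.75% lower). With the spread shared over 16 arrays Ccnd1, Cdk4, Ccne1 and Cdk2 also passed there, where 5782 of all 20317 genes did. The difference between the cultures was called for 1 gene, in the negative direction, against 3.45% of all genes (1.08% positive and 2.37% negative). Times did not overlap for 3 of the 10 in dispersed myoblasts (Ccnd1, Ccnd3 and Cdk6) and for 3 in myofiber-associated myoblasts (Ccnd3, Ccne1 and Cdk2), all of them higher at 72 hr, against 31.2% of all genes (17.5% higher and 13.7% lower) and 26.3% (15.9% higher and 10.4% lower). The median log2 difference of the 10 genes was 0.155 in dispersed and 0.355 in myofiber-associated myoblasts, where the medians of all genes were 0.0223 and 0.06256. The exact permutation test of 4 against 4 arrays, two-sided, cannot go below p = 0.0286, the value reached by the genes without overlap.

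**Figure D3:**
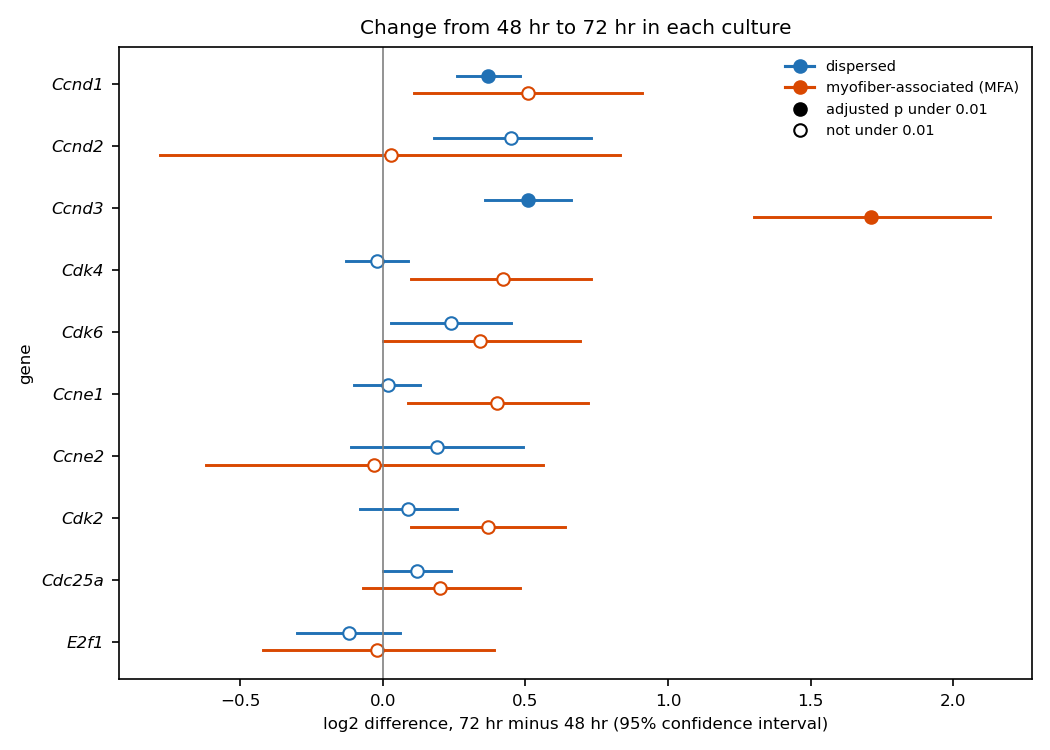
Log2 difference between 72 and 48 hr (x axis) of each gene (y axis) in dispersed and myofiber-associated myoblasts, with lines for the 95% confidence interval and filled points where the adjusted p was under 0.01. Filled points are those of Ccnd1 (0.37) and Ccnd3 (0.51) in dispersed myoblasts and of Ccnd3 (1.71) in myofiber-associated myoblasts.

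Compared at the same time, most of these genes had lower signal in myofiber-associated than in dispersed myoblasts, a comparison of 2 slides as much as of 2 cultures. At 48 hr 9 of the 10 were lower, by 1.34-fold for Cdc25a to 2.65-fold for Ccnd2, and E2f1 was not called (-0.13, limma adjusted p = 0.511). Leaving out Ccne2, which passed the signal filter through its dispersed arrays, 8 of 9 were lower. This stands beside a background of 43.2% of all genes called (16.1% higher and 27% lower), and beside the adult fiber signal given above. All 9 had no overlap between cultures, as did 56% of all genes (20.7% higher and 35.3% lower). Leaving out Ccne2, 8 of 9 had no overlap at 48 hr. At 72 hr 4 of the 10 were lower, against 27.1% of all genes (11.5% higher and 15.6% lower): Ccnd2 by 3.57-fold, Ccne1 by 1.35-fold, Cdk2 by 1.29-fold, and Ccne2. Leaving out Ccne2, 3 of 9 were lower. Without overlap at 72 hr were 7 of the 10, all lower, against 46.4% of all genes (20.4% higher and 26.1% lower). Leaving out Ccne2, 6 of 9 had no overlap at 72 hr. The median log2 difference of the 10 genes was -0.70 at 48 hr and -0.40 at 72 hr (-0.64 and -0.36 without Ccne2), where those of all genes were -0.1228 and -0.02264. Of the 6 markers of dividing cells 4 were lower at 48 hr and 2 at 72 hr, and of the 9 myoblast markers 1 was higher and 3 were lower at 48 hr and 2 were higher and none lower at 72 hr.

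Ccnd2 had the largest culture difference of the 10 genes, with log2 differences of -1.41 (SE 0.27) at 48 hr and -1.83 (SE 0.26) at 72 hr (limma adjusted p = 0.00226 and 0.00105). The difference of Ccne2 was -1.26 (SE 0.17) and -1.48 (SE 0.24) (limma adjusted p = 0.000398 and 0.0018), and with normexp background correction it was -0.50 and -0.58, still past the threshold. The size of its difference thus depended on how background was handled. Ccnd3 was lower in myofiber-associated myoblasts at 48 hr (-0.83, limma adjusted p = 0.000469), and at 72 hr its difference was 0.38, with a 95% confidence interval of 0.01 to 0.74 and a limma adjusted p of 0.0824. Ccnd1 was lower at 48 hr by 1.69-fold (limma adjusted p = 3e-04), and at 72 hr its difference of -0.62 missed the threshold (limma adjusted p = 0.0127). With the row of the slide as a block, the calls of Cdk4, Cdk6 and Cdc25a at 48 hr and of Ccne1 and Cdk2 at 72 hr ended (limma adjusted p = 0.0124, 0.0139, 0.0155, 0.0207 and 0.0258), with the same log2 differences. The call of Cdk6 at 48 hr also ended with scaling to the 75th percentile. Of 9 settings other than leaving out an array, 6 called Ccne1 at 72 hr and 3 called Cdk2. Some of these calls also ended when 1 array was left out. At 48 hr this was so for Cdk4 and Cdk6 without myofiber-associated replicate 7 or 9 or dispersed replicate 1, 3 or 4 (limma adjusted p up to 0.0131 and 0.0152), and for Cdc25a without myofiber-associated replicate 9 or dispersed replicate 2, 3 or 4 (up to 0.0154). At 72 hr the calls of Ccne1 and Cdk2 held in 1 of 8 such fits each, without myofiber-associated replicate 3 and 1, and otherwise had a limma adjusted p of up to 0.0216 and 0.0316. Without myofiber-associated replicate 3, Ccnd1 (-0.75) and Cdk6 (-0.62) passed at 72 hr. With the spread shared over 16 arrays Ccnd1, Cdk6 and Cdc25a passed at 72 hr (limma adjusted p = 0.00163, 0.00531 and 0.00777). Ccnd1 also passed then with normexp (limma adjusted p = 0.00753).

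**Figure D4:**
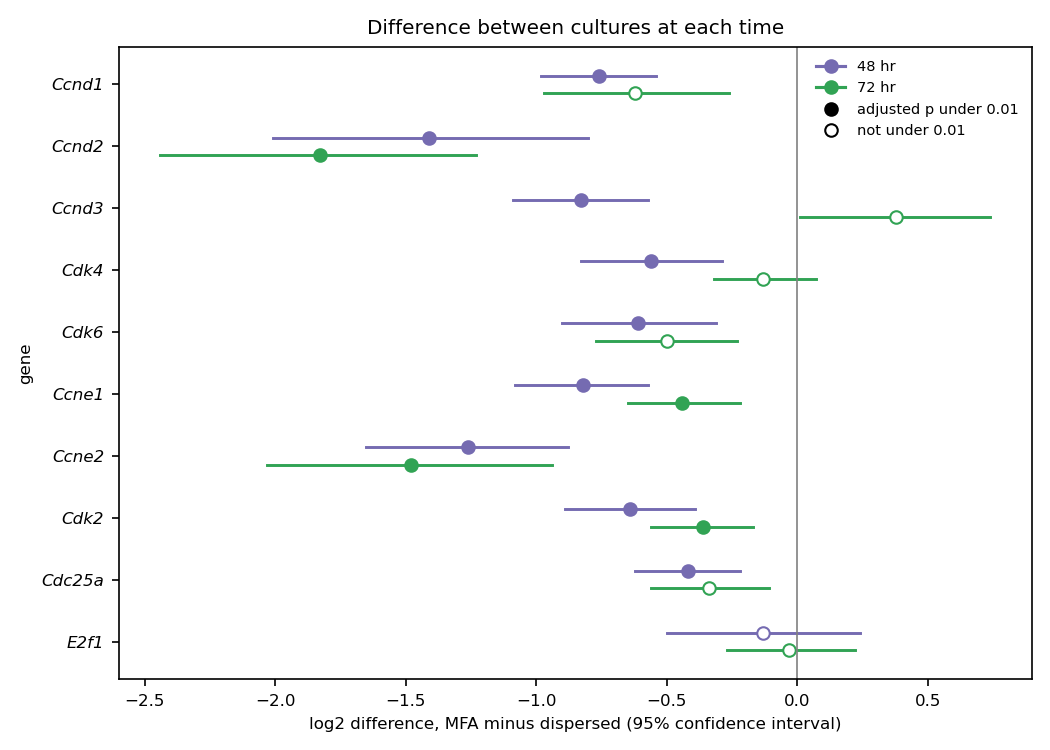
Log2 difference between myofiber-associated (MFA) and dispersed myoblasts (x axis) of each gene (y axis) at 48 and 72 hr, with lines for the 95% confidence interval and filled points where the adjusted p was under 0.01. Ccnd2 lies farthest left at both times (-1.41 and -1.83), and Ccnd3 at 72 hr is the only point above 0 (0.38).

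Within the myofiber-associated groups the 10 genes deviated together from array to array. Replicate 9 at 48 hr and replicate 4 at 72 hr were below their group mean for all 10 genes, with median deviations of -0.26 and -0.24 log2 units, and replicate 3 at 72 hr was above it for all 10, by a median of 0.22. In dispersed myoblasts the median deviation of an array was -0.04 to 0.08. The summed adult fiber marker signal of these 3 myofiber-associated arrays was 2670000, 1990000 and 460000, which is the highest value of the 48-hr group (shared with replicate 7) and the highest and lowest of the 72-hr group. The summed signal of the 6 dividing-cell markers was lowest in its group on replicates 9 (56600) and 4 (79300). On replicate 3 it was 100000, against 103000 on replicate 1. The share of all genes above or below their group mean on these arrays was not counted. Over all genes, the median absolute difference between 2 myofiber-associated arrays was up to 0.349 at 48 hr and 0.273 at 72 hr. Between 2 dispersed arrays it was up to 0.13 and 0.155.

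**Figure D5:**
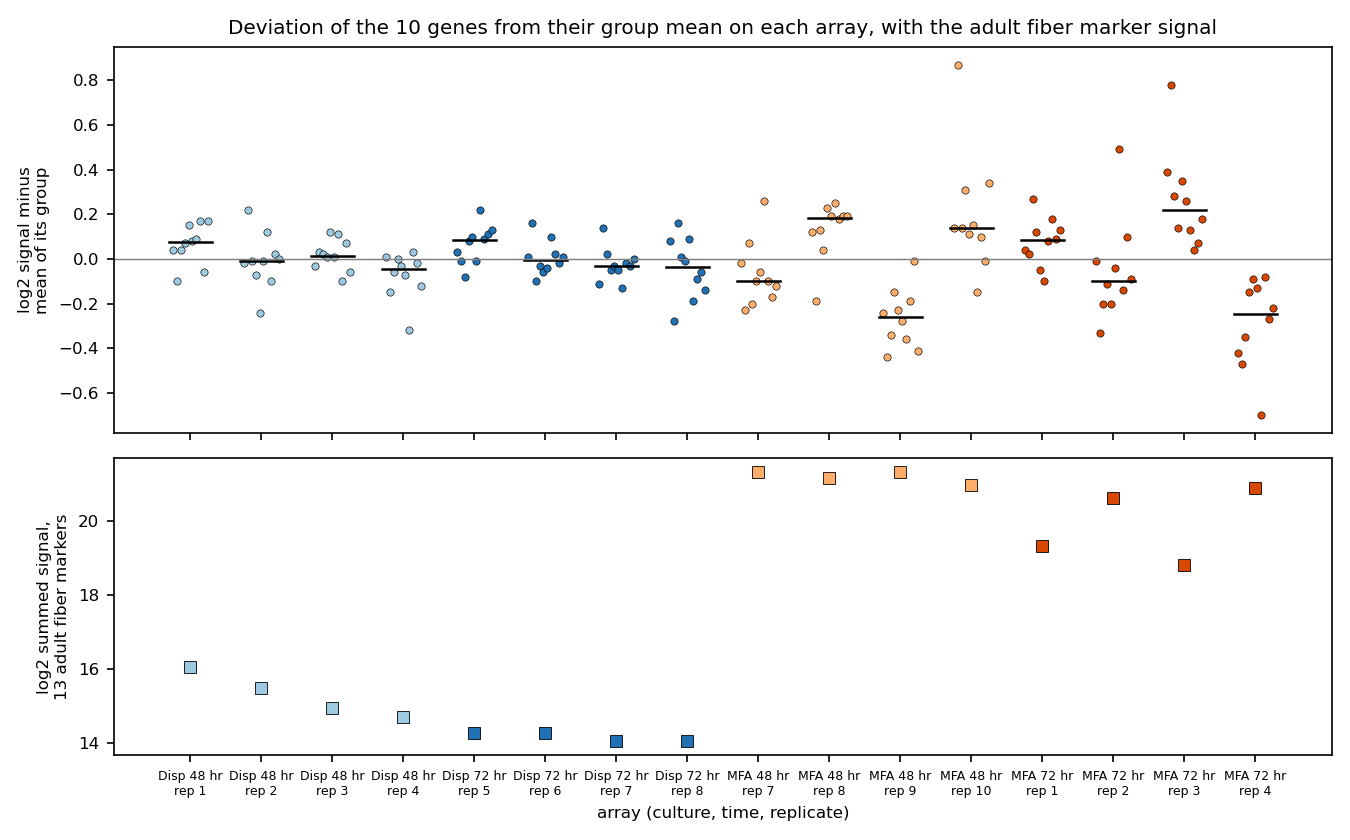
Top, log2 signal of each of the 10 genes minus the mean of its group (y axis) on each array (x axis: Disp, dispersed; MFA, myofiber-associated), with points for genes and a line for their median; bottom, log2 of the summed signal of 13 adult fiber markers on the same arrays. Replicate 4 of the myofiber-associated 72-hr arrays has all 10 genes below the group mean and the highest fiber signal of its group, and replicate 3 the reverse.

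The inhibitors of these kinases were read from 7 genes, of which Cdkn2a, Cdkn2b and Cdkn2d rose in each culture and none fell, with median log2 differences of 0.17 and 0.46 over the 7. Cdkn2a, which encodes p16INK4A and p19ARF, rose by 1.11 log2 units (SE 0.15) in dispersed and by 2.79 (SE 0.25) in myofiber-associated myoblasts (limma adjusted p = 0.00167 and 0.000866). Its probe was not assigned to either product here. Cdkn2b, which encodes the CDK4 and CDK6 inhibitor p15INK4B, rose by 0.85 and 2.18 (limma adjusted p = 0.000298 and 0.00125). Both differed between cultures, by -1.68 and -1.33 (limma adjusted p = 0.00471 and 0.00533), but without a filter on low signal neither difference passed (limma adjusted p = 0.0104 and 0.0117). With 1 of the 16 arrays left out, these 2 calls ended in 8 and 11 of 16 fits (limma adjusted p up to 0.0129 and 0.0147). The rises of Cdkn2a and Cdkn2b in each culture passed in every one of these settings. Cdkn2d, which encodes p19INK4D and was named after its values were seen, rose by 0.36 and 0.59, and the second call ended in each of the 8 fits with 1 array left out (limma adjusted p = 0.0107 to 0.0361). Cdkn1b, which encodes p27KIP1, did not pass in either culture, with differences of 0.10 and 0.04.

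Of 18 genes for activation and turnover of the cyclin-kinase complexes, 1 rose in dispersed and 2 rose in myofiber-associated myoblasts, and none fell. This stands beside 13.7% and 5.48% of all genes tested called in these cultures (7.37% and 3.74% higher). Skp2, the ubiquitin ligase subunit that marks p27KIP1 for degradation, rose by 0.30 in dispersed and by 1.17 in myofiber-associated myoblasts (limma adjusted p = 0.00775 and 0.00187), and the difference was -0.87 (limma adjusted p = 0.00325). Cdc25b, a phosphatase related to Cdc25a, rose by 1.06 in myofiber-associated myoblasts (limma adjusted p = 0.00602), and differed between cultures by -0.90 (limma adjusted p = 0.00934). Without a filter on low signal the dispersed call of Skp2 and both calls of Cdc25b ended (limma adjusted p = 0.0168, 0.0154 and 0.0185), and with 1 array left out they ended in 7 of 8, 6 of 8 and 13 of 16 fits. The myofiber-associated call of Skp2 ended without replicate 7 at 48 hr (limma adjusted p = 0.0102). Over the settings other than leaving out an array, 0 to 4 of the 18 rose in dispersed myoblasts, and 1 to 7 rose and 0 to 1 fell in myofiber-associated myoblasts.

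None of 12 pocket protein and E2F family genes passed in either culture or differed between the cultures, and none of 5 later cyclin and kinase genes did. With the spread shared over 16 arrays, 4 of the 12 rose and 2 fell in myofiber-associated myoblasts, as 2 of the 5 rose. The deposited ratios called 2 of the 12 as higher in dispersed myoblasts (E2f7 and E2f8). In myofiber-associated myoblasts they called E2f2, E2f8, Tfdp2, Ccna2 and Ccnb2 as higher. They gave differences between the cultures for E2f2, E2f6, Ccna2 and Ccnb2 of these lists. In dispersed myoblasts E2f7 also passed with normexp, scaling to the 75th percentile and the slide row as a block (limma adjusted p = 0.00893, 0.00429 and 0.00539). With that block the difference of E2f2 between cultures passed (limma adjusted p = 0.00871). Of 28 genes known as E2F targets in DNA synthesis, 1 fell in dispersed myoblasts, Mcm5, a subunit of the replicative helicase, by 0.34 on the log2 scale (limma adjusted p = 0.00395), and none passed in myofiber-associated myoblasts, where 3 rose with the shared spread. The call of Mcm5 ended with the shared spread, with scaling to the 75th percentile and in 4 of 8 fits with 1 array left out (limma adjusted p = 0.0606, 0.0145 and up to 0.0143). None of the 28 differed between the cultures, but with the deposited ratios Mcm5 and Mcm7 did (limma adjusted p = 0.00121 and 0.00372). The median log2 differences of the 28 were 0.01 and 0.23. Above 0 were 16 of 28 in dispersed and 25 of 28 in myofiber-associated myoblasts, against 55% and 57% of all genes tested. The 5 later genes had medians of 0.05 and 0.42.

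Of 20 genes listed as acting on D-type cyclins or with them in muscle, 2 rose and 4 fell in dispersed myoblasts. In myofiber-associated myoblasts 1 rose and 1 fell. Myog, the differentiation factor myogenin, rose by 3.92 in dispersed myoblasts (limma adjusted p = 4.78e-05), from a mean log2 signal of 6.05 to 9.96, and its means were 14.30 and 13.66 in myofiber-associated myoblasts. Igf1r, a growth factor receptor, rose by 0.28 in dispersed myoblasts, whereas Mef2c, a muscle transcription factor, fell by 1.50 there and Tcf4 by 0.84. Met, the hepatocyte growth factor receptor, also fell there by 0.50 and Mapk3, which encodes ERK1, by 0.35. Tcf4 is the gene of a basic helix-loop-helix E protein, not the beta-catenin partner that shares this name as an alias. Pax7, the satellite cell transcription factor, rose by 1.68 in myofiber-associated myoblasts, where Fgf2, a myoblast mitogen, fell by 1.33 (limma adjusted p = 0.0011 and 0.00124). Negative differences between the cultures were called for Pax7 (-1.49), Tcf4 (-1.03) and Ctnnb1 (-0.81), and a positive one for Myog (4.55). The call of Ctnnb1 ended without a filter on low signal (limma adjusted p = 0.0132) and in 12 of 16 fits with 1 array left out, whereas those of Pax7, Tcf4 and Myog passed in all of these settings. With the shared spread the dispersed calls of Igf1r, Mef2c, Met and Mapk3 ended (limma adjusted p = 0.0594, 0.117, 0.109 and 0.0525), and that of Igf1r also in 4 of 8 fits with 1 array left out and that of Met in 1, without dispersed replicate 6 (limma adjusted p up to 0.0137 and 0.0101).

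Over the 16 arrays and 12616 genes compared, the genes most like Ccnd3 in signal were Tmem151b (Pearson's r = 0.988) and Stard6 (0.986), and the genes most like Ccnd1 were Pigf (0.984) and Cstf3 (0.982). The mean log2 signal of Tmem151b was 8.05, 8.52, 7.22 and 8.94 in the order dispersed 48 hr, dispersed 72 hr, myofiber-associated 48 hr and myofiber-associated 72 hr, the same order of groups as Ccnd3. Among the 10 genes, Ccnd1 and Cdk6 correlated most closely over the 16 arrays (r = 0.94), as did Cdk6 and Ccne1, and the lowest value was that of Ccnd3 and E2f1 (0.13). These arrays share 2 slides and 4 group means, so the values are descriptions.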

How the data were processed

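Arrays were one-color Agilent mouse arrays, 16 in all. The authors deposited, per the file headers, spot intensity after background correction by Feature Extraction 11.0.1.1. They also deposited a table of log2 ratios (72-hr arrays over the 48-hr mean of the same culture), used here as an alternative only. Tests of these ratios took the 48-hr mean as fixed, without the spread of the 48-hr arrays.

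Outlier spots were dropped and the processed signal was log2-transformed. Arrays were normalized by loess (span 0.3, 4 iterations) to the 48-hr mean of their culture and then by quantiles over all 16. Replicated spots of a probe were averaged, a gene took its brightest probe, and a median log2 signal of 5 or more was required. The annotation exists in 2 versions, of which 1 was used, and the 14 probes are named alike in both. Times within a culture and cultures within a time (8 arrays each) and the interaction (16 arrays) were tested with limma 3.58.1 (R 4.3.3, two-sided, Benjamini-Hochberg over all genes tested, threshold 0.01), which stands in for the samr package of the study's methods. The fit was tested on simulated data. A limit on false calls was set only where the groups compared had equal spread, which dispersed and myofiber-associated arrays do not have. Exact permutation tests were run on the 10 genes.

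The 10 genes and all lists were chosen with earlier results of these data known. Beside the 10 genes, the text names the 2 largest rises and falls past the threshold in each pathway list and the 2 genes most correlated with each member that passed. Cdkn1b, Cdkn2d, Met, Mapk3 and Ctnnb1 were named after their values were seen. Marker lists also covered differentiating myocytes, leukocytes, fibroblasts, pericytes, Schwann cells and dividing cells. Alternatives were normexp (offset 50), the 75th percentile, quantiles only, dropping the low-signal filter, requiring signal well above background on at least 4 arrays, outlier spots kept, the mean of all probes, the slide row as a block, 1 fit of 16 arrays, the deposited ratios and each array left out. Sequences and plots were made with Python 3.11.15 (pandas 2.3.3, matplotlib 3.10.9).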

Additional observations from a re-analysis of the deposited data

Results flagged for a closer look

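In 3 of the 40 groups of 4 arrays formed by the 10 genes, 1 array stood apart from the others by a share of the group's range above Dixon's 95% critical value, which chance passes in about 1 of 20 groups. Ccnd3 on myofiber-associated replicate 9 at 48 hr was the lowest of its group (log2 signal 13.44), with a gap of 0.867 of the range, and without this array the 72-hr rise of Ccnd3 was 1.60. Ccne2 on dispersed replicate 4 at 48 hr was the lowest (5.39), with a gap of 0.934. Cdc25a on myofiber-associated replicate 4 at 72 hr was the lowest (11.96), with a gap of 0.909. Replicates 9 and 4 of the myofiber-associated groups are those with all 10 genes below their group means.

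The time change of Ccnd3 differed between the cultures by -1.20 on the log2 scale (dispersed minus myofiber-associated, limma adjusted p = 0.00283), and it was positive in both.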

How the results depend on the processing

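The myofiber-associated rise of Ccnd3 and its difference between cultures stayed past the threshold in all alternatives that gave a value and with every array left out (log2 1.60 to 1.83 and -1.32 to -1.09). No paired analysis was possible because the groups set directly against each other share no replicate numbers in the labels. The number of genes called ranged, with 1 array left out, from 1665 to 2505 for dispersed time, 232 to 1990 for myofiber-associated time, 295 to 2368 for the interaction, 6375 to 11144 for culture at 48 hr and 3312 to 5627 at 72 hr, against 2789, 1114, 701, 8772 and 5513 in the analysis reported. The 1990 and the 2368 came without myofiber-associated replicate 10 at 48 hr, the pool of 2 preparations. Without a filter on low signal 467 genes were called for myofiber-associated time and 411 for the interaction. With the slide row as a block the count was 570 for myofiber-associated time. One fit of 16 arrays called 999 genes for dispersed and 5782 for myofiber-associated time, with 39.3% of the dispersed calls higher against 53.7% in the analysis reported. The cause of these shifts was not tested.

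Differences near 0 that turned sign, none of them called, were those of Cdk4 in dispersed time (0.04 with normexp, 0.07 with the 75th percentile, 0.02 with the mean of all probes, 0 with the deposited ratios), Ccne2 in myofiber-associated time (0.07 with the 75th percentile) and Ccnd2 in myofiber-associated time (-0.02 with the deposited ratios). With 1 array left out, the differences of Cdk4 and Ccne1 in dispersed time ranged from -0.04 to 0.01 and -0.02 to 0.04, those of Ccnd2, Ccne2 and E2f1 in myofiber-associated time from -0.24 to 0.31, -0.20 to 0.20 and -0.15 to 0.10, those of Cdk6, Ccne2 and E2f1 for the interaction from -0.18 to 0.01, -0.01 to 0.39 and -0.22 to 0.03, and those of E2f1 between cultures from -0.24 to 0.01 at 48 hr and -0.09 to 0.05 at 72 hr. Signal over background limits Ccne2 most, whose culture differences were -0.50 and -0.58 with normexp.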
